A study of Mus musculus with 6 samples.

Results

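The fibrillar collagens and their crosslinking enzymes are represented by 10 genes, taken by symbol for their place in fibril formation, with no measured value in the rule, out of 39089 genes in the deposited table. They are the collagen chains Col1a1, Col1a2, Col3a1, Col5a1, Col5a2 and Col12a1, the lysyl oxidases Lox, Loxl1 and Loxl2, and the lysyl hydroxylase Plod2. Each symbol had 1 row, and all 10 members passed the filter on low counts. RNA was taken from the corneal limbus, the rim where cornea meets conjunctiva, of wild-type mice. In 3 samples the mice had received L-733,060, an antagonist of the neurokinin receptor that binds substance P, by subconjunctival injection on day 0 and day 3. In the other 3, the controls, the injection was sterile water, and the days of that injection are not stated. Tissue was collected after a week. The labels give no strain, sex, age or number of mice per sample, and do not say whether each sample is a different mouse. The p-values therefore describe the spread among these libraries, part of which may be technical. The study's title names substance P and limbal stem cells, and the comparison here sets RNA levels after the receptor antagonist beside those after water.

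Collagen fibrils are built from chains that fold by threes into triple helices, are cut at their ends outside the cell, and then pack side by side. In the corneal stroma the fibrils mix type I collagen (chains Col1a1 and Col1a2) with type V collagen (Col5a1 and Col5a2), which starts fibrils and limits their width. Type III collagen (Col3a1) is prominent in conjunctiva, vessels, skin and healing wounds, and type XII (Col12a1) lies on the surface of fibrils. Plod2 hydroxylates lysines in the chain ends, and lysyl oxidases such as Lox then oxidise lysines so that neighbouring chains join in covalent crosslinks.

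Total counts per sample ran from 18708288 to 23541791, and the 10 members together took 0.0986 to 0.125% of the counts in controls and 0.177 to 0.257% with L-733,060. Of 15712 genes tested, 41.3% passed the threshold (edgeR quasi-likelihood test, Benjamini-Hochberg adjusted p under 0.05), 21.4% as higher and 19.9% as lower, so a call by itself is common in these data.

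In the limbus given L-733,060, 7 of the 10 members rose, where 21.4% of all tested genes did, and none fell. Col3a1 rose 7.72-fold, Lox 7.13-fold and Plod2 4.05-fold, while the chains of type V and type I collagen rose between 1.49-fold and 2.40-fold. The other lysyl oxidases Loxl1 and Loxl2, and Col12a1, did not pass the test. The members' median log2 fold change was 0.85, beside 0.00 over all tested genes, of which the middle 50% lay between -0.40 and 0.41. For 7 of the 10 members every treated sample lay above every control, beside 26.6% of all tested genes (52% in either direction). These are bulk samples, in which more or fewer cells of a type and more or less RNA per cell cannot be told apart.

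**Figure D1:**
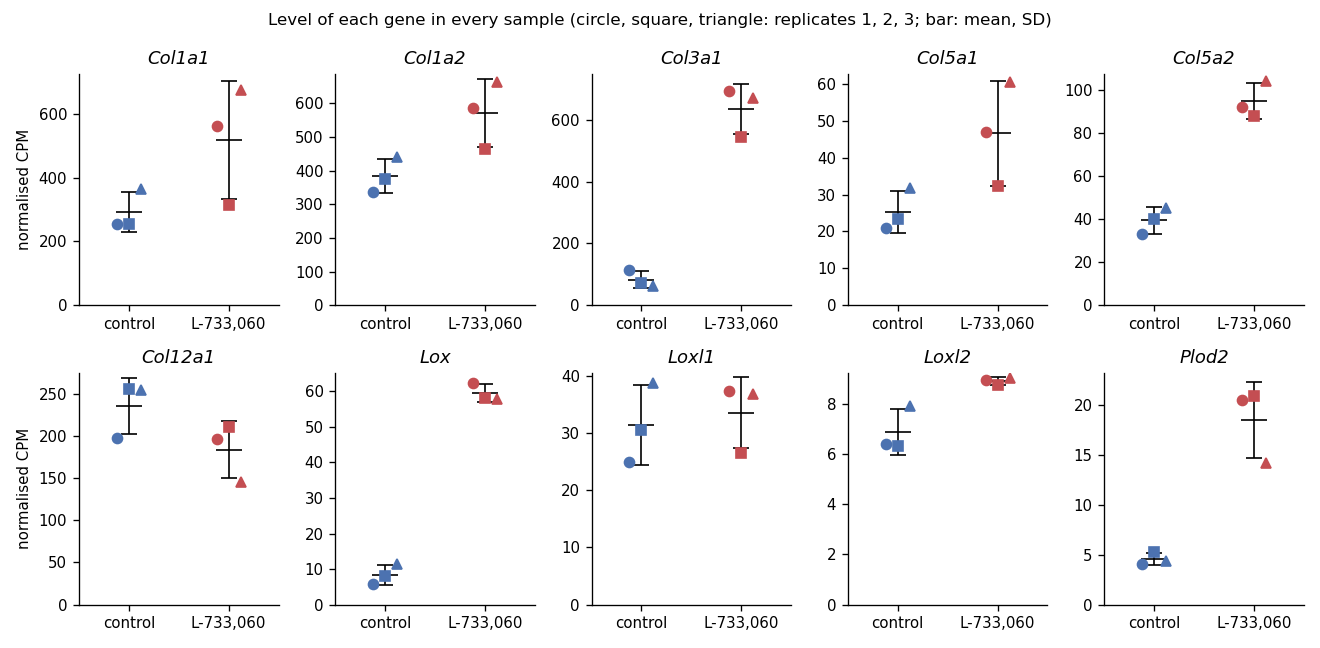
Normalised CPM (y axis, from 0) of each of the 10 genes in the 3 control and 3 L-733,060 samples. Points are samples, with a marker for each replicate number, and the bar is the mean with its SD. Col3a1, Lox and Plod2 show wide gaps between the groups, and Col1a1, Col12a1 and Loxl1 overlap.

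Levels are given as normalised CPM, which are counts scaled to a common library size by TMM, a correction for library composition. Col3a1, the chain of type III collagen (chromosome 1, 45311538 to 45349706, plus strand, mm10), measured 113, 71.6 and 62.6 CPM in controls 1 to 3. The L-733,060 samples 1 to 3 measured 694, 544 and 669 CPM. Every treated sample lay far above every control, and the fitted log2 fold change was 2.95 (SE 0.21; edgeR adjusted p = 1.08e-06). Only 2.20% of tested genes had a larger log2 fold change. Its place among tested genes by mean CPM moved as well: 14.8% of them had a higher mean in controls, and 1.26% with L-733,060.

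Type I collagen moved less and more unevenly. Col1a1 (chromosome 11, 94936224 to 94953042, plus strand), which supplies a pair of the helix's chains, measured 255, 255 and 364 CPM in controls, and 562, 314 and 675 CPM after L-733,060. The second treated sample lay below the third control, so the groups overlapped. The log2 fold change was 0.83 (SE 0.24; edgeR adjusted p = 0.0165), but the adjusted p was 0.0825 without control 1 and 0.0675 without control 2. Col1a2 (chromosome 6, 4505618 to 4541543, plus strand), the remaining chain, measured 338, 375 and 440 CPM in controls, and 586, 466 and 664 CPM after L-733,060. Its groups did not overlap, and the nearest values were those of the third control and the second treated sample. Its log2 fold change was 0.57 (SE 0.15; edgeR adjusted p = 0.0106), and without control 1 the adjusted p was 0.0585.

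The sequences around the start sites of Col3a1 and Col1a2 are shown because these chains of major fibril collagens differed widely in the size of their rise. They are RefSeq promoters of GRCm38.p6, 250 bases before to 50 after the start, plus strand in both cases, at chr1:45311288-45311587 for Col3a1 and chr6:4505368-4505667 for Col1a2. Promoters of 3 of the 10 members were examined, the other being Col5a1. Whether the remaining members have a promoter in the same set is not reported here. Capitals mark matches, on either strand, to any of 4 short motifs, none of which overlap here. The first is the promoter box TATAAA. The second is the CCAAT box bound by nuclear factor Y. The third is ACGTG, within the hypoxia response element. The fourth is the SMAD-binding element CAGAC.
Col3a1: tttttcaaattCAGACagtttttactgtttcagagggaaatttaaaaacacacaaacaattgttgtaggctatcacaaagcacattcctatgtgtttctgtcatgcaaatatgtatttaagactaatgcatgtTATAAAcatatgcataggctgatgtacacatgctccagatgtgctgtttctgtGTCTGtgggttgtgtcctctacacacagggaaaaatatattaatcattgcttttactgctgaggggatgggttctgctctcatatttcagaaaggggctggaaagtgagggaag
Col1a2: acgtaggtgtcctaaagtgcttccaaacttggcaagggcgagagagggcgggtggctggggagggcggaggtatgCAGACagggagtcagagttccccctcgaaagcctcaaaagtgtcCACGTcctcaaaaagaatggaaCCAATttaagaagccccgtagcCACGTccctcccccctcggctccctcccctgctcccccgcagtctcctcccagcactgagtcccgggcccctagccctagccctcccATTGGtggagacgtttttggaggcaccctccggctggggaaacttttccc

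The Col3a1 window held 1 match to TATAAA and 2 matches to CAGAC, and none to the other pair. In the Col1a2 window there were 2 matches to CCAAT, 2 matches to ACGTG and 1 match to CAGAC, and the first motif had none. The Col5a1 window held 1 match to ACGTG and 1 match to CAGAC. Of 32851 promoters of the same length, 13.6% held the first motif, 37.4% the second, 19.6% the third and 49.6% the fourth, so each of these matches is common and describes the letters only.

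Both chains of type V collagen rose. Col5a1 (chromosome 2, 27886381 to 28039510, plus strand) measured 20.8, 23.5 and 31.8 CPM in controls, and 46.9, 32.2 and 60.6 CPM after L-733,060. The second treated sample was barely above the third control. The log2 fold change was 0.88 (SE 0.22; edgeR adjusted p = 0.00717). Col5a2 (chromosome 1, 45374331 to 45503282, minus strand), which neighbours Col3a1 on the chromosome but is read from the opposite strand, measured 33.0, 40.1 and 45.4 CPM in controls. With L-733,060 it measured 92.3, 88.2 and 104 CPM. The treated samples lay close together and well above the controls, with a log2 fold change of 1.27 (SE 0.14; edgeR adjusted p = 2.85e-05).

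Col12a1 (chromosome 9, 79598987 to 79721141, minus strand), the fibril-surface collagen, did not rise with the others. It measured 198, 255 and 254 CPM in controls, and 196, 210 and 145 CPM after L-733,060. The groups overlapped, since the first control lay below the second treated sample. The log2 fold change was -0.36 (SE 0.16; edgeR adjusted p = 0.0887), and with no filter on low counts it passed as lower (log2 fold change -0.37, adjusted p = 0.0262).

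Among the crosslinking enzymes, Lox (chromosome 18, 52516060 to 52529867, minus strand), the founding lysyl oxidase, measured 5.64, 7.99 and 11.3 CPM in controls. The L-733,060 samples stood at 62.4, 58.3 and 57.9 CPM. They were nearly equal to each other, while the controls spread about their mean of 8.32 with an SD of 2.86. The log2 fold change was 2.83 (SE 0.21; edgeR adjusted p = 1.3e-06). Plod2 (chromosome 9, 92539636 to 92608428, plus strand), lysyl hydroxylase 2, measured 4.07, 5.21 and 4.36 CPM in controls, and 20.4, 20.9 and 14.1 CPM after L-733,060. All treated samples were above all controls, with the third the lowest of them. The log2 fold change was 2.02 (SE 0.20; edgeR adjusted p = 1.21e-05).

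The remaining lysyl oxidases gave smaller differences. Loxl1 (chromosome 9, 58287723 to 58313212, minus strand), known for crosslinking elastin, measured 24.8, 30.5 and 38.7 CPM in controls, and 37.3, 26.4 and 36.9 CPM after L-733,060. The groups overlapped fully, with a log2 fold change of 0.10 (SE 0.18; edgeR adjusted p = 0.699; -0.05 without control 1). Loxl2 (chromosome 14, 69608692 to 69695834, plus strand), an oxidase that also acts on the basement membrane, measured 6.38, 6.30 and 7.91 CPM in controls, and 8.96, 8.72 and 9.03 CPM after L-733,060. Although its groups did not overlap, it missed the threshold, with a log2 fold change of 0.37 (SE 0.17) and an edgeR adjusted p of 0.103. In the table, long noncoding RNAs on the opposite strand overlap the spans of Col5a1, Loxl2 and Plod2, and the sources used here do not state whether counting used strand. The one at Plod2, B430319G15Rik, had 6, 10 and 2 counts in controls and 21, 15 and 17 with L-733,060, against 88 to 111 and 316 to 424 counts of Plod2 itself.

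**Figure D2:**
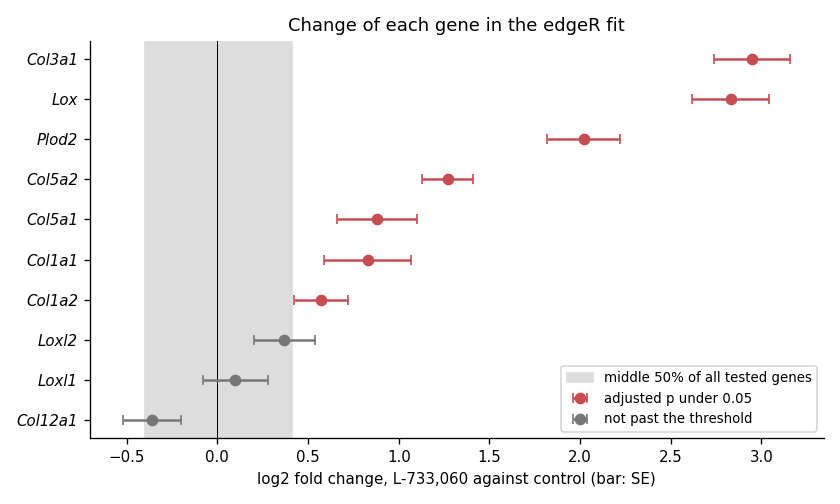
Fitted log2 fold change of each of the 10 genes (x axis, L-733,060 against control; bar: SE), ordered by size. The grey band holds the middle 50% of all tested genes, from -0.40 to 0.41, and the 7 genes past the threshold lie to its right, while Loxl2, Loxl1 and Col12a1 lie within it.

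Levels of different genes were compared per gene length, in the authors' TPM. In controls Col1a2 was highest at 153 ± 21.8 TPM (SD, n = 3), followed by Col1a1 at 103 ± 24.1 TPM. Next came Col12a1 at 34.6 ± 3.98 and Col3a1 at 31.0 ± 11.2 TPM, whose ranges overlapped. Loxl1 at 19.5 ± 4.41 TPM overlapped the range of Col3a1, and was followed by Col5a2 at 12.4 ± 1.91 and Col5a1 at 6.21 ± 1.46 TPM. At the bottom, Lox at 3.51 ± 1.22 TPM overlapped Loxl2 at 2.57 ± 0.397 TPM, and Plod2 was lowest at 1.41 ± 0.114 TPM. With L-733,060 the order changed. Col3a1 at 240.5 ± 33.3 TPM, Col1a2 at 231 ± 49.0 TPM and Col1a1 at 185 ± 71.9 TPM then overlapped as neighbours at the top. Col5a2 at 30.3 ± 4.18, Col12a1 at 27.2 ± 4.07, Lox at 25.3 ± 0.764 and Loxl1 at 21.2 ± 4.197 TPM formed a run in which each overlapped the next. Col5a1 followed at 11.6 ± 4.01 TPM, then Plod2 at 5.75 ± 0.945 TPM and Loxl2, now lowest, at 3.37 ± 0.211 TPM.

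The summed level of the 6 collagen genes was 323, 305 and 393 TPM in controls and 732.8, 565 and 878 TPM with L-733,060. Type III made up more of this sum in every treated sample than in any control. Col3a1 made up 13.6, 8.33 and 6.06% of it in controls and 34.2, 36.0 and 30.5% with L-733,060. The chains of type I together made up 72.1, 74.3 and 78.6% in controls and 56.7, 52.3 and 61.1% with L-733,060. Those of type V had overlapping shares, 4.98 to 5.71% in controls and 5.33 to 6.30% with L-733,060. Col12a1 went from 9.36 to 11.7% in controls to 2.60 to 5.47% with L-733,060. For the sum and for the shares of Col3a1, type I and Col12a1 the groups did not overlap, and the two-sided exact permutation p was 0.1 for each, the smallest that 3 against 3 samples allow. The share of type V had an exact permutation p of 0.4.

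**Figure D3:**
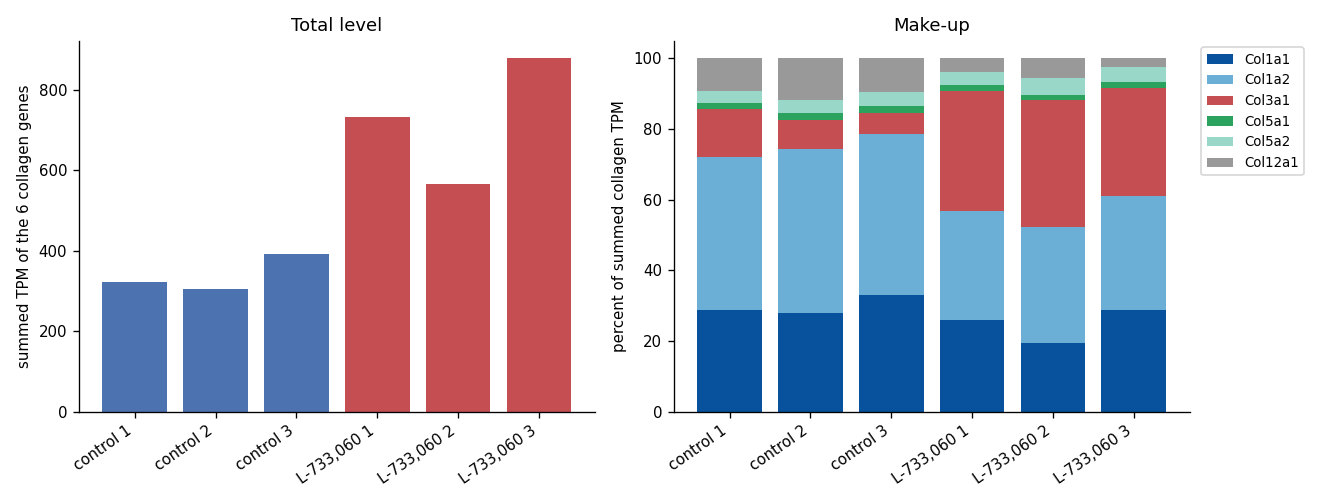
Left, summed TPM of the 6 collagen genes in each sample, from 0; right, the percent of that sum from each gene. The sum lies between 305 and 393 TPM in controls and between 565 and 878 TPM with L-733,060, and the share of Col3a1 is at least 30.5% in each treated sample.

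Ratios within a sample do not depend on how libraries are scaled to each other. Col3a1 per Col1a1 was 0.472, 0.299 and 0.183 in controls and 1.32, 1.85 and 1.06 with L-733,060, 4.63-fold higher. Lox per Loxl1 was 0.154, 0.177 and 0.198 in controls and 1.13, 1.49 and 1.06 with L-733,060, 6.92-fold higher. Plod2 per Plod1, a lysyl hydroxylase of the helical part of the chains, was 0.114, 0.168 and 0.118 in controls and 0.601, 0.922 and 0.370 with L-733,060, 4.50-fold higher. None of these ratios overlapped between groups. Plod1 itself, at 16.8 ± 1.49 and 15.3 ± 3.90 CPM (SD, n = 3 each), did not pass the test (edgeR adjusted p = 0.62; log2 fold change -0.13, SE 0.19).

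The other ratios concerned Col12a1, type V and the chains of type I. Col12a1 per Col1a1 was 0.325, 0.419 and 0.292 in controls and 0.146, 0.281 and 0.0902 with L-733,060, 2.21-fold lower on the means of logs. Col5a1 per Col5a2 was 0.490, 0.455 and 0.544 in controls and 0.395, 0.284 and 0.451 with L-733,060. The chains of type V were thus less even in the treated samples, by -0.42 on the log2 scale, although 1 treated sample came close to the lowest control. By contrast Col5a1 per Col1a1 ran from 0.0569 to 0.0641 in controls and from 0.0581 to 0.0715 with L-733,060, and Col1a1 per Col1a2 from 0.600 to 0.729 and from 0.593 to 0.896, both overlapping. Over these 7 ratios the two-sided exact permutation p was 0.1 for the 5 without overlap, 0.4 for Col1a1 per Col1a2 and 0.6 for Col5a1 per Col1a1. Adjusted over the 7, the permutation p was 0.14 for those 5, so none passed the threshold, which this design cannot reach.

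**Figure D4:**
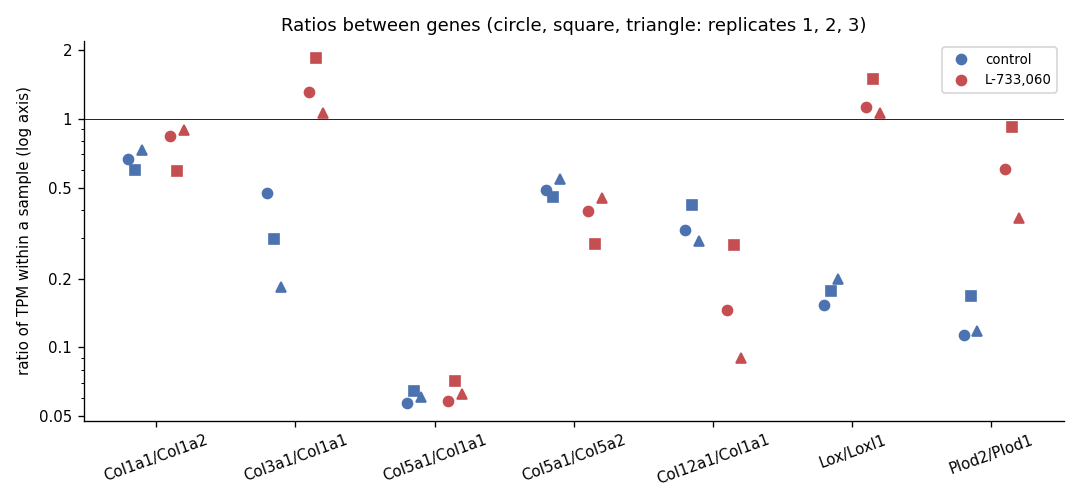
Ratio of TPM between named pairs of genes within each sample, on a log axis, with a marker for each replicate number. The 5 ratios other than Col1a1/Col1a2 and Col5a1/Col1a1 do not overlap between the groups.

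Across the 6 samples, Col5a1 followed Col1a1 most closely of the members. Likeness was measured as the Euclidean distance between centred log2 CPM profiles, which share the same 6 libraries. Of 15702 tested genes that are no member, 1 lay nearer to Col1a1 than Col5a1 did (distance 0.264), and 56 lay nearer than Col1a2 (distance 0.559). Lox, at 2.73, and Col3a1, at 2.93, were farther from Col1a1 than 92.0% and 93.7% of those genes. The nearest genes included Snai1 (distance 0.260), a transcription factor known from epithelial-mesenchymal transition, Dnmt3b (0.303), a DNA methyltransferase, Nrp (0.326) and Capn6 (0.344), of the calpain family. These 4 are expressed at low levels, with group means of 1.35 to 4.40 CPM, and like Col1a1 they were lowest among treated samples in sample 2. That likeness follows from how they were picked. Snai1, Dnmt3b and Nrp did not pass (edgeR adjusted p = 0.113, 0.058 and 0.052), though all passed without L-733,060 2. Capn6 passed (edgeR adjusted p = 0.0433), but the adjusted p was 0.0549 to 0.2 without control 1, control 2, control 3, L-733,060 1 or L-733,060 3.

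Other genes of fibril formation were taken from lists of pathway members. Over all tested genes 21.4% rose and 19.9% fell. Of 5 tested genes for other fibril-forming chains, 3 rose and 1 fell (median log2 fold change 0.75). Col11a1 and Col5a3, further chains of types XI and V, rose by 1.98 (SE 0.28, edgeR adjusted p = 0.000174) and 1.72 (SE 0.39, edgeR adjusted p = 0.00412) on the log2 scale, and Col11a2, another chain of type XI, fell by 1.43 (edgeR adjusted p = 0.00624). Col24a1 was the other that rose (log2 fold change 0.75, edgeR adjusted p = 0.0371), and leaving out control 1, control 2, L-733,060 1 or L-733,060 2 gave adjusted p-values of 0.0779, 0.15, 0.124 and 0.0547, and the DESeq2 Wald test 0.0504. Of 5 tested genes for other fibril-associated collagens, 1 rose and 1 fell (median -0.67). Col14a1, which like type XII decorates fibrils, rose from 10.5 ± 1.20 to 36.6 ± 5.12 CPM (edgeR adjusted p = 3.91e-06; log2 fold change 1.80, SE 0.15). Col20a1 fell by 0.67 on the log2 scale (edgeR adjusted p = 0.0207), and the adjusted p was 0.0842, 0.0716, 0.073 and 0.0564 when control 1, control 3, L-733,060 1 and L-733,060 2 were left out in turn, and 0.0646 in limma on log2(TPM + 1). Col9a2 had a log2 fold change of -1.69 (edgeR adjusted p = 0.0543; -0.81 without control 3), and it passed without control 1 (adjusted p = 0.0224) or L-733,060 1 (0.0468), in the DESeq2 Wald test (0.0462) and with no filter on low counts (0.00508).

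In the lists of other collagen-modifying enzymes and chaperones, more genes rose than fell, where 21.4% of all tested genes rose and 19.9% fell. Of 17 prolyl hydroxylases and collagen chaperones, 10 rose, 1 fell and 6 did not pass (median 0.69). Serpinh1, the collagen-specific chaperone HSP47, rose from 73.1 ± 9.28 to 184 ± 46.1 CPM (edgeR adjusted p = 0.000116; log2 fold change 1.33, SE 0.18). P4ha1 and P4ha2, catalytic subunits of the prolyl hydroxylase that stabilises the triple helix, had log2 fold changes of 0.99 and 1.11 and both rose (edgeR adjusted p = 0.000216 and 0.000234). P3h2 was the member that fell, by 0.82 on the log2 scale (edgeR adjusted p = 0.00487). Of 6 other lysyl oxidases, lysyl hydroxylases and collagen glycosyltransferases, 3 rose and 1 fell (median 0.53). Plod3, a lysyl hydroxylase that also adds sugars to collagen, rose by log2 0.75 and Loxl3 by 1.00 (edgeR adjusted p at most 0.00634), and the glycosyltransferase Colgalt2 fell by 2.54 (edgeR adjusted p = 0.000785). Loxl4 rose by log2 0.78 (edgeR adjusted p = 0.0476), a call lost without any one of control 1, control 2, control 3, L-733,060 2 or L-733,060 3 (adjusted p 0.0592 to 0.182) and in limma (0.0902).

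Among the proteases that cut procollagen and their enhancers, 1 of 6 tested genes rose and 1 fell (median 0.10). Over all tested genes 21.4% rose and 19.9% fell. Bmp1, the protease that removes the C-terminal propeptide and also activates Lox, rose from 21.2 ± 2.71 to 47.8 ± 6.13 CPM (edgeR adjusted p = 6.79e-05; log2 fold change 1.17, SE 0.15). Its enhancer Pcolce2 fell from 5.71 ± 1.28 to 1.16 ± 0.387 CPM, by 2.28 on the log2 scale (edgeR adjusted p = 8.78e-05). The related enhancer Pcolce, chosen after its values were seen, measured 206 ± 10.96 and 209.5 ± 30.4 CPM and missed the threshold (edgeR adjusted p = 0.901; log2 fold change 0.02). Adamts2, which removes the N-terminal propeptide, had a log2 fold change of 0.56 (edgeR adjusted p = 0.112). It passed without control 3 (adjusted p = 0.0468), without L-733,060 2 (0.0421), with no filter on low counts (0.0365) and with the replicate block (0.0259). Of the list's genes, 2 passed as higher without control 1, without control 3 or with the replicate block. Without L-733,060 2 or with no filter on low counts, 3 passed as higher. Of 12 partners in fibre and elastic fibre assembly, 7 rose and 3 fell (median 0.76). Tnc, tenascin C of remodelling matrix, rose from 6.03 ± 1.15 to 112 ± 24.2 CPM (edgeR adjusted p = 8.15e-08; log2 fold change 4.21, SE 0.20). Postn, periostin, and Fbn1, fibrillin 1, had log2 fold changes of 1.37 and 1.00 and both rose (edgeR adjusted p = 1.94e-05 and 0.00037). Those that fell were Tnxb, Fbln5 and Ltbp3, with log2 fold changes of -1.75, -0.69 and -0.57 (edgeR adjusted p = 0.00149, 0.00429 and 0.0148). The Ltbp3 call was lost without control 3 (adjusted p = 0.0826) or L-733,060 2 (0.0503). Sparc rose (log2 fold change 0.52, edgeR adjusted p = 0.018), a call lost without control 1, control 2 or L-733,060 1 (adjusted p 0.0617 to 0.0884).

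Of 6 genes for collagen degradation and uptake, 5 rose and none fell (median 0.76), where 21.4% of all tested genes rose and 19.9% fell. The collagenase Mmp13 rose by 5.87 on the log2 scale (SE 0.32, edgeR adjusted p = 1.49e-07), and the gelatinase Mmp2 rose by 0.84 (SE 0.12, edgeR adjusted p = 0.000193). Mmp8, the neutrophil collagenase, had 1 count in all 3 controls together and 144 in the 3 treated samples together, a ratio of 160 with a 95% exact binomial interval of 28.3 to 6371 that covers counting error only. Ctsk, the collagen-cutting cathepsin K, was among those that rose (log2 fold change 0.43, edgeR adjusted p = 0.0446), but without control 1, control 2, control 3, L-733,060 1 or L-733,060 3 the adjusted p was 0.0508 to 0.171, and in limma 0.0638.

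**Figure D5:**
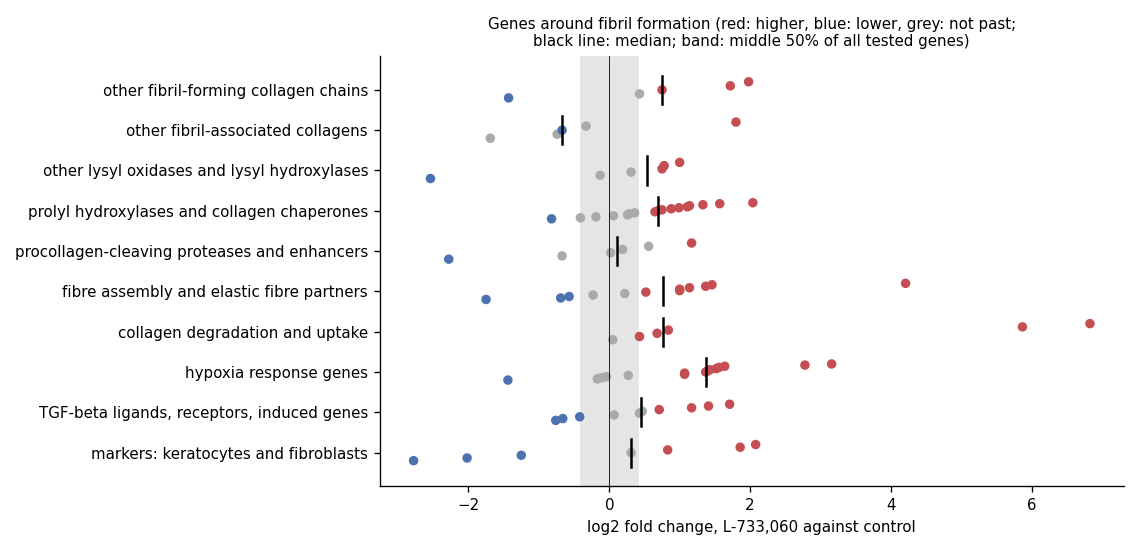
Log2 fold changes (x axis) of the tested genes of 9 lists around fibril formation and of the keratocyte and fibroblast markers, 1 point per gene, coloured by call, with each list's median as a black line and the middle 50% of all tested genes as a grey band. Mmp8 and Mmp13 are the points farthest right, and the marker list is split between genes that rose and genes that fell.

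Lox, Plod2, P4ha1 and P4ha2 are known targets of hypoxia-inducible factor, and a list of 15 other hypoxia response genes was counted beside them. In it 10 rose, 1 fell and 4 did not pass (median 1.37), where 21.4% of all tested genes rose and 19.9% fell. Vegfa, the endothelial growth factor, rose from 8.43 ± 1.53 to 24.9 ± 0.696 CPM (edgeR adjusted p = 1.62e-05; log2 fold change 1.56, SE 0.16), and the oxidoreductase Ero1a by log2 1.43 (edgeR adjusted p = 8.2e-06). Egln3, the oxygen-sensing hydroxylase that is itself a target, fell from 550.5 ± 51.6 to 202.5 ± 16.5 CPM (edgeR adjusted p = 4.33e-06; log2 fold change -1.44, SE 0.13). Those that rose include Pgk1, Ldha, Eno1 and Aldoa, which encode enzymes of glycolysis. Those that did not pass were Ndrg1, Car9, Pdk1 and Kdm3a, with log2 fold changes of -0.17 to 0.27 (edgeR adjusted p at least 0.418). Oxygen levels were not measured here.

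Transforming growth factor beta is a known inducer of fibrillar collagen genes. Of 10 genes for its ligands, receptors and induced genes, 4 rose and 3 fell (median 0.45). Over all tested genes 21.4% rose and 19.9% fell. Skil, a feedback regulator, rose by log2 1.41 and the receptor Tgfbr2 by 1.17 (edgeR adjusted p = 2.09e-05 and 2.38e-05). The receptor Tgfbr1 fell by 0.76 on the log2 scale (edgeR adjusted p = 0.0013). Smad7 and Tgfbi fell by 0.66 and 0.42 (edgeR adjusted p = 0.0258 and 0.037). The list's count of lower genes was 1 in place of 3 when control 3, L-733,060 1 or L-733,060 2 was left out, with total count scaling, and in limma on log2(TPM + 1).

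Markers of keratocytes and fibroblasts, the cells that make stromal collagen, were split: of 7 genes, 3 rose and 3 fell. Over all tested genes 21.4% rose and 19.9% fell. Kera, keratocan of the keratocyte, measured 175 ± 25.9 CPM in controls, against 25.4 ± 7.76 CPM after L-733,060 (edgeR adjusted p = 1.55e-06; log2 fold change -2.78, SE 0.21). Dcn, decorin, a proteoglycan that binds collagen fibrils, fell by 2.02 on the log2 scale (edgeR adjusted p = 8.75e-06), and Lum, lumican, by 1.25 (edgeR adjusted p = 0.00098). In the same libraries Vim, the mesenchymal intermediate filament, rose by log2 1.86 (edgeR adjusted p = 8.2e-06), the fibroblast surface protein Thy1 by 2.08 and the growth factor receptor Pdgfra by 0.83 (edgeR adjusted p at most 0.00181). The summed level of this list was 1735 to 2745 CPM in controls, against 820 to 1183 CPM after L-733,060. Dcn held most of that sum in controls, at 1539 ± 364 CPM, and by gene the list's median log2 fold change was 0.31. No marker of the list was at 0 in a group.

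Of 6 markers of smooth muscle and pericytes, 4 rose and 1 fell, where 21.4% of all tested genes rose and 19.9% fell. The summed level of these markers was 30.2 to 32.0 CPM in controls, against 148 to 216 CPM after L-733,060. Acta2, smooth muscle actin, which myofibroblasts also make, rose from 12.2 ± 1.86 to 145 ± 30.3 CPM (edgeR adjusted p = 1.23e-07; log2 fold change 3.56, SE 0.19). Myh11, the myosin of smooth muscle, was the marker that fell, by 0.96 on the log2 scale (edgeR adjusted p = 0.021), a call lost without control 2 (adjusted p = 0.0818) or L-733,060 2 (0.0739). All 4 macrophage markers rose, from summed levels of 44.8 to 53.9 CPM to 206 to 247 CPM, Lyz2 (lysozyme) among them by log2 3.04 (edgeR adjusted p = 1.23e-07). Lyz2 held most of that sum after L-733,060, at 169 ± 18.9 CPM, and the other macrophage markers rose by log2 0.77 to 1.74. Of 4 endothelial markers 1 rose, with summed levels of 28.3 to 42.2 and 34.7 to 55.9 CPM. Of 6 markers of corneal epithelium 2 rose and 3 fell (36860 to 45960 and 23600 to 31090 CPM). Krt12, the keratin of differentiated corneal epithelium, fell by 3.58 on the log2 scale, and Krt14, a keratin of basal cells, rose by 3.21 (edgeR adjusted p = 2e-07 and 4.51e-07). The keratin Krt5 fell by 0.86 (edgeR adjusted p = 0.00172). Pax6 fell by 0.45 (edgeR adjusted p = 0.0109), a call lost without L-733,060 1 (adjusted p = 0.0573). Of 5 Schwann cell and melanocyte markers both tested genes fell (13.3 to 14.4 and 7.08 to 10.6 CPM). Markers of skeletal muscle summed to at most 1.37 CPM in any sample, with no call, and those of bone and cartilage to at most 1.03 CPM. The part of these cell types in the changes of the collagen and crosslinking genes was not tested.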

How the data were processed

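RNA of 6 limbal samples had been poly(A)-selected, per the labels' protocols. The submitters' processing notes name HISAT2 2.1.0, HTSeq 0.11.2, bcl2fastq and the build mm10. The sources used here do not give their settings, the strand mode or the annotation release. The authors deposited read counts per gene and TPM per gene, which equal count over gene length (in bases, also deposited by the authors) rescaled per sample, within 4.96e-06.

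Counts were fitted in R 4.3.3 with edgeR 4.0.16: filterByExpr (minimum count 10, minimum total 15; 15712 of 39089 genes kept), TMM scaling, and a quasi-likelihood F test, with p-values adjusted by Benjamini-Hochberg across the 15712 genes and a threshold of 0.05. Adjusted p-values printed beside genes come from this fit unless another tool or a permutation is named. SE is the absolute log2 fold change over the square root of F. The fit was tested on simulated data. At these depths 3 counts correspond to 0.127 to 0.16 CPM. Replicates differed beyond counting noise (chi-square per degree of freedom 15 to 38.7).

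TPM ratios and shares were compared by exact permutation over samples with scipy 1.17.1. Alternatives used DESeq2 1.42.0 and limma 3.58.1 (pseudocount 1), other filters and scalings, a replicate block and leaving out each sample.

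The members, lists and tests were chosen with earlier results of these data known. Named genes are the members, ratio partners, up to 3 genes of smallest p per list and the 5 nearest to Col1a1. Picked after their values were seen were Col24a1, P3h2, Loxl4, Ctsk, Lum, Thy1, Pdgfra, Myh11, Cspg4, Tnxb, Fbln5, Ltbp3, Sparc and the genes of glycolysis. So were Krt5, Pax6, Tgfbr1, Smad7, Tgfbi and the hypoxia response genes that did not pass. Of the genes this rule names, 2 are not reported here.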

Additional observations from a re-analysis of the deposited data

How the results depend on the processing

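Of the members past the threshold, Col3a1, Lox, Plod2, Col5a1 and Col5a2 kept their direction and passed under every alternative run: DESeq2 size factors, total count scaling, the DESeq2 Wald test, limma on log2(TPM + 1), no filter, at least 50 counts in 3 samples, the replicate block and each sample left out. Col1a1 had a log2 fold change of 0.78 in limma on log2(TPM + 1) and missed the threshold (adjusted p = 0.0562), and 0.57 to 1.09 with a sample left out. Col1a2 ranged from 0.44 to 0.70 and Loxl1 from -0.05 to 0.28 with a sample left out. With no filter on low counts Col12a1 passed at a log2 fold change of -0.37 and the count of lower members was 1. The count of higher members was 5 to 7 with a sample left out, 5 without control 1 and 6 without control 2. The log2 ratio of Col5a1 per Col1a1 went from 0.08 to -0.01 on log2(TPM + 1), and ranged from -0.01 to 0.14 with a sample left out. The cause of these shifts was not tested.

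Samples of the groups share replicate numbers only by label. Deviations from the group means of same-numbered samples correlated at -0.022, 0.273 and 0.133. Control 2 and control 3 correlated best with the treated sample of the same number, and control 1 with L-733,060 3 (0.163). The numbers were not taken as pairs, and these correlations cannot settle whether the samples were paired. With the replicate block, 7 members rose and none fell, as without it, and 7071 genes passed in place of 6496. The SE of the log2 fold change of Col1a1 was 0.15 with the block and 0.24 without it. Total count scaling moved the median of all genes by 0.05 on the log2 scale.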
